A study of Mus musculus with 11 samples.

Results

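The genes described here are 44 genes of the cell cycle and of proliferation, taken by gene symbol from a table of read counts on 54532 mouse genes. They are 24 genes that act in G2 and mitosis, 19 genes that act at the start of and during S phase, and Stmn1, a microtubule regulator of dividing cells that was kept apart. All 44 symbols were found once in the table. The rule that takes them uses their function and no measured value, but the list was chosen with earlier results of these data known.

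The cells were CD8+ Tregs, regulatory CD8+ T cells sorted from spleen as CD8+CD44+Ly49+CD122+ after bead selection of CD8+ cells. They came from untreated wild-type (WT) C57BL/6J mice in 4 groups by age and sex. The young groups were 3 males and 3 females, and the middle-aged groups 2 males and 3 females. Young mice were 2 to 3 months old and middle-aged mice 10 to 12 months old. The labels call the older group old, and the study's term, middle-aged, is used here. Each of the 11 libraries was an independent replicate and is named by its group and its number in the labels. Whether cells of several mice were pooled in a library is not given in the sources used here. The comparison of ages asked how the expression of CD8+ Tregs differs between young and middle-aged mice.

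A cell that divides first copies its DNA in S phase and then separates the copies in mitosis. The transcription factor E2F1 and the E cyclins start S phase, the MCM helicase opens DNA at origins, and ribonucleotide reductase and thymidylate synthase supply the nucleotides. Later, cyclins A and B activate Cdk1, the aurora and polo kinases build the spindle, and the anaphase-promoting complex ends mitosis. Most memory-like CD8+ T cells rest between divisions, and the mitosis genes are then held at a low level by the DREAM complex and RB proteins. In RNA from a bulk sort, fewer dividing cells and less RNA of these genes per cell cannot be told apart.

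Young male 1 was the shallowest library with 6135736 counted reads, and young female 2 the deepest with 24394532. Levels are given as CPM, the count relative to the library size after TMM scaling (a factor for the makeup of each library), per 1000000 counts, or as log2 CPM with a prior count of 2. The 11 identity genes, such as Cd3e, Cd8a, Il2rb and Ly49 genes, were present in all 11 libraries and summed to 7557 to 12685 CPM. Middle-aged female 2 had the lowest sum, but middle-aged female 3 (7575 CPM) and young female 3 (7658 CPM) were close to it. Of the gate genes, Cd44 and Il2rb (CD122) were lowest in young male 1, at 42.3 and 551 CPM. The other libraries had 98.3 to 165 and 1291 to 2622 CPM. In young male 1, Cd8a and Klra7 lay within the range of the others and Klra6 was highest. Ikzf2 (Helios, a transcription factor of CD8+ Tregs) was lowest in middle-aged female 2, at 10.8 CPM beside 19.8 to 69.1 CPM in the other libraries. The 4 libraries numbered 1 held less of long genes than the other libraries: the slope of log2 level on log2 gene length was -0.26 to -0.094 in them and 0.014 to 0.18 in the 7 others. Middle-aged female 2 and middle-aged male 1 stood apart from the other libraries in the cell cycle genes themselves. Scores by age and the fitted values of the members as a set are therefore given with and without them. The fitted value of a single member is from all 11 libraries unless stated, and for many members it changes sign without middle-aged female 2.

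Promoters were compared first, as a property shared by members that the choice did not use. RefSeq windows of build GRCm38.p6, from 250 bases before to 50 after a transcript's start, were held for 36 of the 44 members in 38 windows. Both strands were searched for the cell cycle homology region (CHR, TTTGAA or TTCGAA), which the DREAM and MuvB complexes bind at genes of mitosis, for CCAAT, which NF-Y binds, and for the E2F site (TTTCCCGC, TTTCGCGC, TTTGCCGC or TTTGGCGC). CHR letters were in 16 of the 20 windows of mitosis members (80%), in 3 of the 18 windows of S phase members (16.7%) and in 19.2% of all 32851 windows. CCAAT was in 18 of 20 (90%), 12 of 18 (66.7%) and 37.4% of all windows. E2F letters were in 1 of 20 (5%), 7 of 18 (38.9%) and 2.26% of all windows. Matches of different motifs overlapped in 0.161% of all windows and in 2 member windows. A match is only a description of letters and not a site. To show what these shares look like, 2 mitosis and 2 S phase members are given as the 250 bases before the start, with every match in capitals. They are those with the highest level per length whose printed window shares at most 30 bases with the gene in the deposited coordinates. Cdc20 has its CHR letters at position -18 and CCAAT at -53 and -8, counted from the start. Ccnb2 has CHR letters at -167 and again in the 50 bases after the start, and CCAAT at -87, -54 and -21. Mcm6 holds E2F letters at -110, -106 and -47, of which the first 2 overlap, and CCAAT on the other strand at -57 and -14. Mcm5 holds overlapping E2F letters at -153 and -149, and CCAAT at -77, at -22 and again after the start.
Cdc20, chr4:118437344-118437593, - strand: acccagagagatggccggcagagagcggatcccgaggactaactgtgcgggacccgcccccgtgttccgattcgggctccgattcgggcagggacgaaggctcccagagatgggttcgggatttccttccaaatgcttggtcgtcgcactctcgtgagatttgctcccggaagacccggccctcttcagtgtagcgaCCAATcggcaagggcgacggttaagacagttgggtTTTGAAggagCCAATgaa
Ccnb2, chr9:70421555-70421804, - strand: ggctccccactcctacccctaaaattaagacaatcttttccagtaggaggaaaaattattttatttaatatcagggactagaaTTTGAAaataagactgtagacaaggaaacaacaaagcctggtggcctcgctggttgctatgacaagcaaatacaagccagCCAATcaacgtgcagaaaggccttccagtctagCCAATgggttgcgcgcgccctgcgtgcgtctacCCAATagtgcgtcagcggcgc
Mcm6, chr1:128359706-128359955, - strand: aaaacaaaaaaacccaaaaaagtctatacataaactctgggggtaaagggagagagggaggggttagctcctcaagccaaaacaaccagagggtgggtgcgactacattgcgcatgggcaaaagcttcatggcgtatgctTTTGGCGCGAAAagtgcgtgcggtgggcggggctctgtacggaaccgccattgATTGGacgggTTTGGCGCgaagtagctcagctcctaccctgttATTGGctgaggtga
Mcm5, chr8:75109259-75109508, + strand: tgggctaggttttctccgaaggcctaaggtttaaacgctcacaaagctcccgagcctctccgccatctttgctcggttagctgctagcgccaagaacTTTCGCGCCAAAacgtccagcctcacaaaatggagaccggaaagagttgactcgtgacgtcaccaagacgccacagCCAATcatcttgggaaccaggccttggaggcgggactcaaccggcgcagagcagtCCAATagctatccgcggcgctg

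The members lie on 17 chromosomes, and 0 of them lie on the sex chromosomes. Per length, S phase members stood above mitosis members. Over the 11 libraries the mean RPKM (CPM per kilobase of gene length) had a median of 11.3 over the 19 S phase members, from 1.698 for Ccne2 to 80.97 for Pcna, and of 3.65 over the 24 mitosis members, from 0.276 for Cenpf to 17.3 for Cdc20. Stmn1 was the highest member at 89.2 RPKM. Counts were thin for part of the mitosis genes: 11 of 24 mitosis members and 3 of 19 S phase members had at least 1 library under 10 counts. A count of 0 allows a level of up to 0.119 CPM in the deepest and 0.542 CPM in the shallowest library (3 counts, for counting error only).

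The score of a library, the mean log2 CPM over members, differed less between the ages than within the middle-aged group. For the 24 mitosis members it was 3.17 ± 0.51 (SD, n = 6) in young libraries, where it ran from 2.75 to 4.10 with a median of 3.05. Middle-aged males 1 and 2 scored 0.45 and 2.69, and middle-aged females 1, 2 and 3 scored 3.15, 5.91 and 3.33, for a mean of 3.11 ± 1.94 (SD, n = 5). Middle-aged female 2 thus had the highest score of all 11 libraries and middle-aged male 1 the lowest, and the other 3 middle-aged libraries lay inside the young range or, for male 2, just below it.

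The S phase score followed the same order at a smaller spread. It was 5.04 ± 0.34 (SD, n = 6) in young libraries (4.57 to 5.42, median 5.12) and 5.25 ± 1.11 (SD, n = 5) in middle-aged ones. Males 1 and 2 scored 3.73 and 5.07 and females 1, 2 and 3 scored 5.17, 6.86 and 5.40. In both outlying libraries the mitosis score lay further from the young mean than the S phase score, and the difference of the S phase and the mitosis score was 0.95 in middle-aged female 2 and 3.28 in middle-aged male 1, against 1.31 to 2.24 in the young libraries. Without middle-aged female 2 the middle-aged mitosis score was 2.41 ± 1.33 (SD, n = 4) and the S phase score 4.84 ± 0.75. Without either outlying library they were 3.06 ± 0.33 and 5.21 ± 0.17 (SD, n = 3), each within 0.17 of the young mean.

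**Figure D1:**
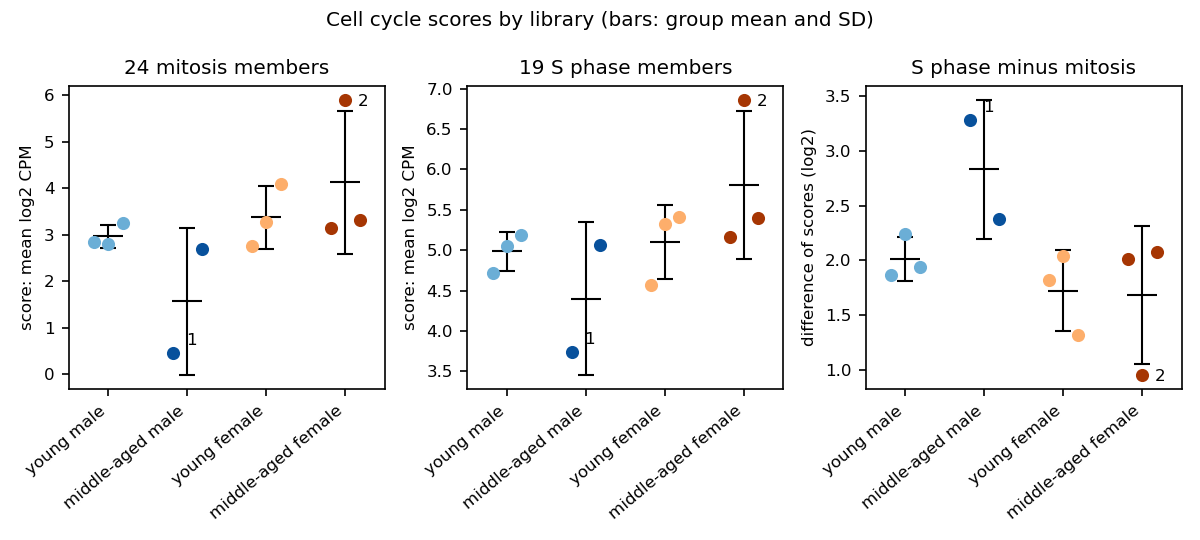
Scores of each library (points) by group, with group mean and SD (bars): mean log2 CPM of the 24 mitosis members, of the 19 S phase members, and the difference of both scores. Middle-aged male 1 and middle-aged female 2 carry their numbers and hold the lowest (0.45 and 3.73) and highest (5.91 and 6.86) mitosis and S phase scores of all 11 libraries.

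The age difference of the score over all 44 members (middle-aged minus young) was 0.05 with all libraries, -0.51 without middle-aged female 2 and 0.01 without both. It was -1.03 in males and 0.73 in females, the sexes that hold middle-aged male 1 and middle-aged female 2. Among libraries that share a number it was -0.64 for number 1, 1.04 for number 2 and -0.14 for number 3. The sign of the score difference thus turned with the libraries that entered it, and between the young libraries numbered 2 and middle-aged male 2 alone it was -0.25. On the scale of summed CPM, which follows the higher genes, the mitosis members summed to 1678 CPM in middle-aged female 2, to 94.8 in middle-aged male 1 and to 189 to 470.3 in the 9 other libraries. The S phase members summed to 3215, 692 and 1126 to 1510 CPM in the same order.

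**Figure D2:**
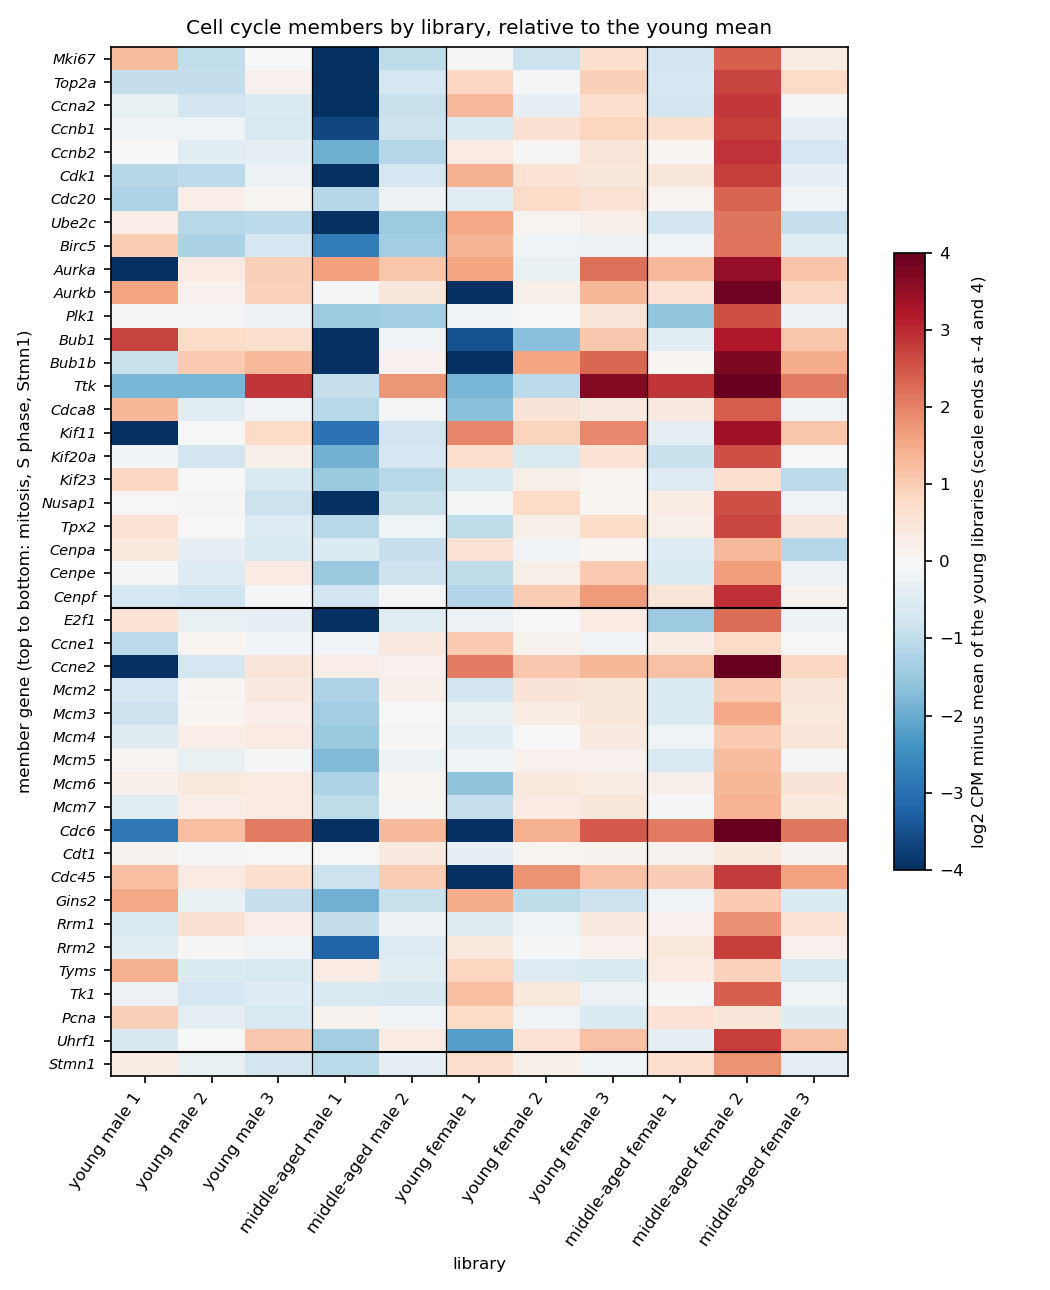
Each member (rows) in each library (columns) as log2 CPM minus its mean over the 6 young libraries, red above and blue below it, with the scale ending at -4 and 4. Middle-aged female 2 is red in nearly every row, middle-aged male 1 is blue in most, and mitosis rows (top block) are deeper in colour than the MCM rows of S phase.

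Among the mitosis genes, Mki67, the nuclear protein Ki-67 that marks cycling cells (ENSMUSG00000031004, chromosome 7, 135689784 to 135716361 of GRCm38), ranged in young libraries from 6.66 to 32.5 CPM (median 12.9). It had 0 and 6.49 CPM in middle-aged males 1 and 2 and 7.83, 69.8 and 16.5 CPM in middle-aged females 1, 2 and 3. Middle-aged female 2 was the highest and middle-aged male 1, with 0 counts, the lowest of all libraries, while females 1 and 3 lay within the young range and male 2 just under it. Top2a, the topoisomerase that untangles copied chromosomes (chromosome 11, 98992943 to 99024189), spanned 12.3 to 45.95 CPM (median 24.7) in young and had 1.23 and 14.4 CPM in middle-aged males 1 and 2 and 14.6, 155 and 41.3 CPM in middle-aged females 1, 2 and 3. The order of the middle-aged libraries was that of Mki67, with the age groups overlapping. In the fit across all genes, edgeR's quasi-likelihood test with sex as a covariate, the log2 fold change of middle-aged over young was -0.20 for Mki67 (95% interval -2.92 to 2.52) and 0.07 for Top2a (-1.61 to 1.75). The means were 15.5 ± 9.76 CPM in young (SD, n = 6) and 20.1 ± 28.4 CPM in middle-aged libraries (SD, n = 5) for Mki67.

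The cyclins and Cdk1 had the same pattern. Ccnb1, the mitotic cyclin B1 (chromosome 13, 100778650 to 100786570), ranged from 6.91 to 19.6 CPM (median 9.59) in young libraries and had 0.7597 and 5.78 CPM in middle-aged males 1 and 2 and 16.8, 72.4 and 8.095 CPM in middle-aged females 1, 2 and 3. Cdk1, the kinase it activates (chromosome 10, 69335146 to 69352938), ranged from 4.88 to 29.4 CPM (median 12.2) and had 0.3799 and 6.78 CPM in middle-aged males 1 and 2 and 14.9, 75.4 and 8.76 CPM in middle-aged females 1, 2 and 3. For both, middle-aged female 2 was above and middle-aged male 1 below every other library, while middle-aged female 1 and female 3 lay in the young range. Ccna2 and Ccnb2 had the same extremes, and middle-aged female 2 held 99.9 CPM of Ccnb2, 5.39 times the next library. The age log2 fold changes of the 4 genes lay between -0.02 (Ccna2) and 0.29 (Ccnb2), with intervals over 3 wide on the log2 scale.

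Ube2c and Cdc20, the ubiquitin-conjugating enzyme and the activator of the anaphase-promoting complex, had fitted values of opposite sign with all 11 libraries only. Ube2c (chromosome 2, 164769898 to 164778822) ranged from 8.07 to 51.6 CPM (median 19.9) in young libraries and had 0 and 6.43 CPM in middle-aged males 1 and 2 and 10.5, 77.5 and 9.18 CPM in middle-aged females 1, 2 and 3. Apart from middle-aged female 2 the middle-aged libraries lay under the young median, and both males under the lowest young library. The log2 fold change of Ube2c was -0.76 (SE 1.01, unadjusted p = 0.469, edgeR). Cdc20 had a log2 fold change of 0.30 (SE 0.54). Without middle-aged female 2 both were negative, at -1.80 for Ube2c and -0.41 for Cdc20.

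Birc5 encodes survivin, which with the aurora B kinase (Aurkb) and borealin (Cdca8) forms the chromosomal passenger complex. Birc5 (chromosome 11, 117849251 to 117855743) ranged from 10.7 to 66.4 CPM (median 22.4) in young libraries and had 3.61 and 9.73 CPM in middle-aged males 1 and 2 and 24.2, 118 and 19.1 CPM in middle-aged females 1, 2 and 3, so that young male 1 and young female 1 stood above 4 of the 5 middle-aged ones. Aurka, the kinase of spindle poles (chromosome 2, 172356190 to 172370535), ranged from 0 to 13.97 CPM (median 4.71), with 0 counts in young male 1, and had 9.401 and 6.49 CPM in middle-aged males 1 and 2 and 7.35, 34.7 and 6.58 CPM in middle-aged females 1, 2 and 3. It was the member with the largest fitted increase, 1.10 (95% interval -0.61 to 2.82), and the only 1 of the cyclin, Cdk1 and kinase genes in which middle-aged male 1 lay above middle-aged male 2, female 1 and female 3. Aurkb (chromosome 11, 69045647 to 69051664) ranged from 0.139 to 13.6 CPM (median 6.94) and had 4.37 and 6.19 CPM in middle-aged males 1 and 2 and 6.72, 67.6 and 8.05 CPM in middle-aged females 1, 2 and 3, with a log2 fold change of 1.05 (95% interval -1.28 to 3.38). Without middle-aged female 2 the fitted values were 0.56 for Aurka and -0.17 for Aurkb. The other genes of the group, the polo kinase Plk1 and the spindle checkpoint genes Bub1, Bub1b and Ttk, were highest in middle-aged female 2, at 1.41 to 4.304 times the next library. Ttk had under 10 counts in 5 libraries and 0 counts in 3 young ones, so that its fitted value, 1.04, rests on thin counts. Whether that value depends on a prior count was not tested.

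Of the motors and spindle genes, Kif23, a kinesin of the midbody (chromosome 9, 61915905 to 61946774), had the smallest unadjusted p of all 44 members (0.1603, edgeR). It ranged from 20.3 to 54.4 CPM (median 31.5) in young libraries and had 10.7 and 14.2 CPM in middle-aged males 1 and 2 and 21.3, 48.99 and 14.7 CPM in middle-aged females 1, 2 and 3. Its groups overlapped, since middle-aged female 2 and female 1 reached the young levels while the other 3 middle-aged libraries lay under the lowest young library. Kif23 was also the only mitosis member for which young male 1, not middle-aged female 2, was highest. Kif11, Kif20a, Nusap1 and Tpx2 had fitted values of -0.29 to 0.56, and the centromere genes Cenpa, Cenpe and Cenpf had values of -0.27 to 0.52. Nusap1 had 1 count in middle-aged male 1 and 92.8 CPM in middle-aged female 2.

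S phase genes varied less between libraries. The median SD of log2 CPM within an age was 0.80 over the 19 S phase members, 1.69 over the 24 mitosis members and 0.71 over all genes tested. Without middle-aged female 2 these were 0.65, 1.25 and 0.72. More of the mitosis members had thin counts, whose part in this contrast was not tested. Mcm2 (chromosome 6, 88883474 to 88898780) and Mcm5 (chromosome 8, 75109569 to 75128439) encode subunits of the replicative helicase. Mcm2 ranged from 78.2 to 184 CPM (median 154) in young libraries and had 55.7 and 149 CPM in middle-aged males 1 and 2 and 89.6, 270.0 and 180.1 CPM in middle-aged females 1, 2 and 3. Mcm5 ranged from 101 to 142 CPM (median 128) and had 37.1 and 109 CPM in middle-aged males 1 and 2 and 81.8, 292 and 122 CPM in middle-aged females 1, 2 and 3. Middle-aged female 2 was highest and middle-aged male 1 lowest for both genes, but by smaller ratios than for the cyclins: 1.46 and 2.06 times the next library. The 6 MCM genes had age log2 fold changes between -0.13 (Mcm5) and 0.16 (Mcm6), with standard errors of 0.37 to 0.46.

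Pcna, the sliding clamp of DNA polymerase (chromosome 2, 132249162 to 132253314), was 1 of 5 members that were not highest in middle-aged female 2. It ranged from 114 to 338 CPM (median 146) in young libraries and had 191 and 163 CPM in middle-aged males 1 and 2 and 261, 246 and 124 CPM in middle-aged females 1, 2 and 3. Tyms, thymidylate synthase (chromosome 5, 30058202 to 30073617), had 43.4 and 25.00 CPM in middle-aged males 1 and 2 and 43.02, 65.1 and 23.1 CPM in middle-aged females 1, 2 and 3, within a young range of 22.4 to 92.5 CPM (median 23.7). The libraries numbered 1 were higher than those numbered 2 and 3 of the same group for both genes, apart from middle-aged female 2 for Tyms, and young male 1 was the highest library. The age log2 fold changes were 0.02 (95% interval -0.74 to 0.79) and -0.04 (-1.07 to 1.00).

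Rrm2, the regulated subunit of ribonucleotide reductase (chromosome 12, 24708241 to 24714146), stood out in middle-aged female 2 as far as mitosis genes did. It ranged from 29.8 to 53.6 CPM (median 39.9) in young libraries and had 4.27 and 28.1 CPM in middle-aged males 1 and 2 and 53.8, 272 and 44.8 CPM in middle-aged females 1, 2 and 3. The level in middle-aged female 2 was 5.05 times the next library, the second largest ratio after Ccnb2, and middle-aged male 1 was the lowest. Its partner Rrm1 and thymidine kinase Tk1 were also highest in middle-aged female 2, at 2.35 and 2.31 times the next library.

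Cdt1, which loads the MCM helicase (chromosome 8, 122568015 to 122573554), had the narrowest interval of all members. It ranged from 47.6 to 66.9 CPM (median 61.9) in young libraries and had 60.3 and 76.9 CPM in middle-aged males 1 and 2 and 65.98, 78.2 and 65.6 CPM in middle-aged females 1, 2 and 3. The log2 fold change was 0.20 (95% interval -0.21 to 0.60, edgeR), and the exact permutation test over the libraries gave p = 0.102 (two-sided), the smallest of the 44 members. Its highest library, middle-aged female 2, was at only 1.02 times the next, and the age groups overlapped. Cdc6, which loads the helicase together with Cdt1, spread far more widely, with 0 and 5.07 CPM in middle-aged males 1 and 2 and 8.68, 52.2 and 9.04 CPM in middle-aged females 1, 2 and 3 and with 0 counts also in young female 1.

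Gins2, a subunit of the active helicase (chromosome 8, 120578633 to 120589304), had the largest fitted decrease, -0.82 (95% interval -2.36 to 0.73). It ranged from 6.001 to 36.1 CPM (median 8.42) in young libraries and had 3.18 and 6.54 CPM in middle-aged males 1 and 2 and 11.01, 25.5 and 8.28 CPM in middle-aged females 1, 2 and 3. Young male 1 and young female 1 were the 2 highest libraries, and the 4 other young libraries lay within the middle-aged range. Ccne2, cyclin E2 (chromosome 4, 11191351 to 11204779), ranged from 0 to 8.19 CPM (median 3.44) and had 2.33 and 2.18 CPM in middle-aged males 1 and 2 and 4.497, 31.7 and 3.46 CPM in middle-aged females 1, 2 and 3. Its log2 fold change of 1.00 became 0.13 without middle-aged female 2, and young male 1 had 0 counts. The related Ccne1 had 0.16 and was highest in young female 1.

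Stmn1 encodes stathmin, which destabilises microtubules and is regulated by Cdk1 (chromosome 4, 134468320 to 134473843). It ranged from 85.4 to 228 CPM (median 144) in young libraries and had 66.1 and 107 CPM in middle-aged males 1 and 2 and 222, 494 and 108 CPM in middle-aged females 1, 2 and 3. Its highest library was again middle-aged female 2, 2.16 times the next library, and the log2 fold change was 0.16 (95% interval -0.75 to 1.08).

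The age comparison called no member. Of 44 members tested, 0 had an edgeR adjusted p under 0.05, where 3 of 13129 genes tested did (0.0229%), and 0 had an unadjusted p under 0.05, where 393 genes did (2.99%). DESeq2 gave 0 members at an adjusted p under 0.05, where 112 of 13129 genes had one (0.853%). It gave 0 members at an unadjusted p under 0.05, and the exact permutation test gave 0 under 0.05. These last counts have no share over all genes beside them. The age groups overlapped for all 44 members and were apart for 1.32% of the genes tested. Fitted values were positive for 32 members and negative for 12, with a median of 0.14 beside 0.0028 over all genes tested, and every interval held 0. The standard errors had a median of 0.72 and ran from 0.19 for Cdt1 to 1.77 for Bub1.

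Without middle-aged female 2 the fitted values turned: 39 of 44 were negative, with a median of -0.41 beside -0.0026 over all genes. Mitosis members had a median of -0.83 and S phase members of -0.19. Of the members, 0 had an adjusted p under 0.05 in this fit (0.0224% of 13388 genes), and 5 had an unadjusted p under 0.05 and were lower (1.11% of the genes). All of them were mitosis genes. Kif23, the midbody kinesin, had a log2 fold change of -1.09 (edgeR unadjusted p = 0.0131), and Plk1, the polo kinase, of -1.10 (unadjusted p = 0.0239). Cenpa, the centromeric histone, had -0.80 (unadjusted p = 0.02201), Ccnb2 -0.87 (unadjusted p = 0.0387) and Birc5 -1.34 (unadjusted p = 0.0434), each with an edgeR adjusted p of 1.00. Without middle-aged male 1 as well, 29 of 44 were negative with a median of -0.22, and 2 members, Ube2c and Cenpa, had an unadjusted p under 0.05 and were lower (0.857% of 13762 genes). Without middle-aged male 1 alone, 5 were negative and the median was 0.52.

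**Figure D3:**
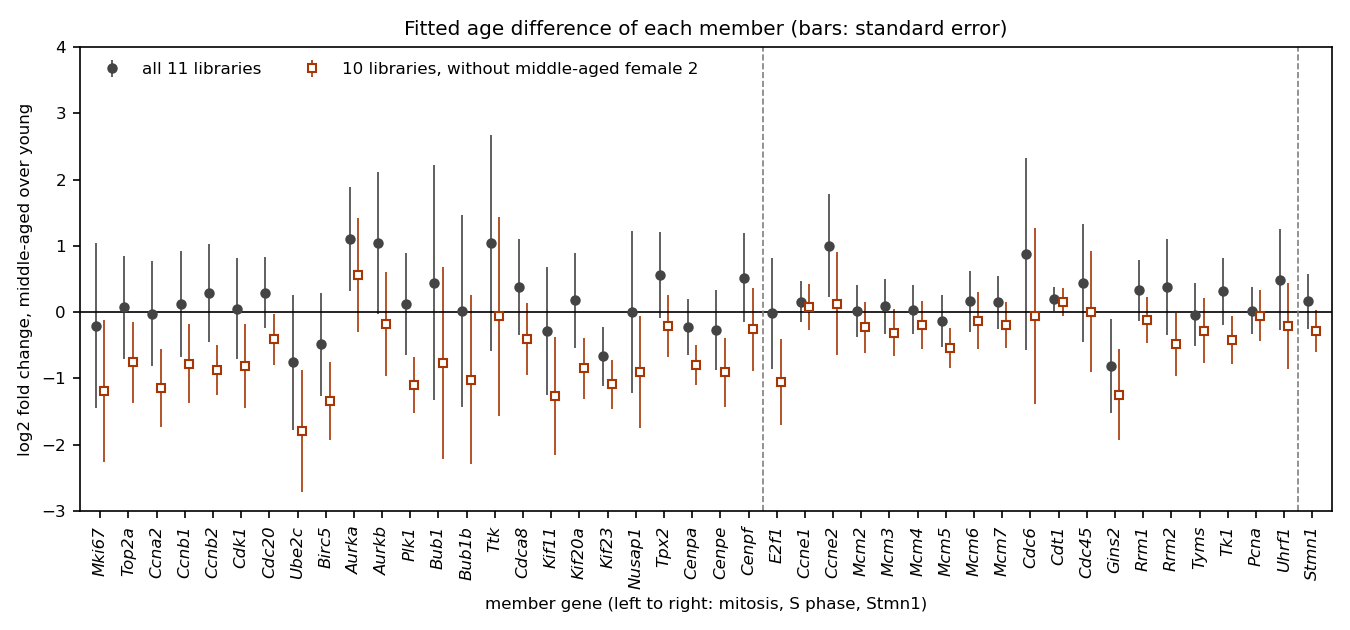
Fitted log2 fold change of middle-aged over young for each member, with its standard error (bars), from all 11 libraries (filled circles) and from 10 libraries without middle-aged female 2 (open squares). Nearly all mitosis genes move from near 0 to below 0 when that library is left out, while the MCM genes move less.

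Middle-aged female 2 was the highest of all 11 libraries for 39 of 44 members (88.6%), where it was the highest for 12.1% of all genes tested. It was highest for 23 of 24 mitosis and 15 of 19 S phase members, and the 5 others were Kif23, Ccne1, Gins2, Tyms and Pcna. It lay above the mean of the other 4 middle-aged libraries for all 44. This difference in log2 CPM had a median of 3.77 over mitosis members, from 1.72 (Kif23) to 4.74 (Ube2c), and of 1.88 over S phase members, from 0.22 (Cdt1) to 4.33 (Cdc6), beside 0.0093 over all genes tested. By role, the medians were 4.19 for Mki67 and Top2a, 3.93 for the cyclins and Cdk1, 3.58 for the kinases and passenger proteins, 3.46 for motors and spindle genes and 2.44 for centromere genes. Among S phase roles they were 3.36 for E2F1 and the E cyclins, 2.35 for nucleotide supply, 2.02 for origin loading and firing, 1.64 for the clamp and DNA methylation genes and 1.505 for the MCM genes, so the roles of both phases overlapped. These values describe 1 library, which the members share, and carry no test.

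Markers of other cells were also higher in that library. The 12 myeloid markers summed to 2919 CPM in middle-aged female 2 and to 43.2 to 332 CPM in the other 10 libraries, and 8 of the 12 were highest there. The neutrophil proteins S100a8 and S100a9 had 700.2 and 763 CPM, against at most 38.6 and 41.4 CPM elsewhere. Mpo and Elane, granule enzymes made by neutrophil precursors, had 185 and 73.4 CPM, against at most 4.59 and 1.09 CPM elsewhere. The 8 plasma cell markers summed to 373 CPM (98.6 to 164 elsewhere), and 5 of them were highest there. Jchain had 159 CPM (0 to 31.9) and Xbp1 151 CPM (83.6 to 128), while Irf4, Sdc1 and Tnfrsf17 were higher in another library. The 8 dendritic markers summed to 361 CPM (18.97 to 205), 7 of them highest there. H2-Aa made 303 CPM of the dendritic sum (14.1 to 175 elsewhere). B cell markers summed to 649 CPM (137 to 580), and 4 of the 10 were highest there. The erythroid and platelet markers summed to 53.7 CPM (8.17 to 159), within the range of the other libraries, but 6 of the 11 were highest in middle-aged female 2. NK markers summed to 1069 CPM, within the young range of 776 to 1274 CPM but above the other middle-aged libraries (514 to 949 CPM). Of these, Gzma, a cytotoxic granule protease, had 333 CPM, against 23.5 to 43.7 CPM in the other middle-aged and 215 to 471 CPM in the young libraries. Ncr1, Cd244a and Tyrobp were also above the other middle-aged libraries, Klrb1c and Klre1 lay within their range, and Il18rap and Itga2 below it. Among the 8 NK markers, 1 was highest of all libraries in middle-aged female 2. The CD4 T list lay within the range of the other libraries, and the thymocyte list below it (45.5 against 51.4 to 114 CPM), with Rag1, Rag2 and Ptcra at 0 counts. The part of these cells in the levels of the cell cycle genes was not tested.

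**Figure D4:**
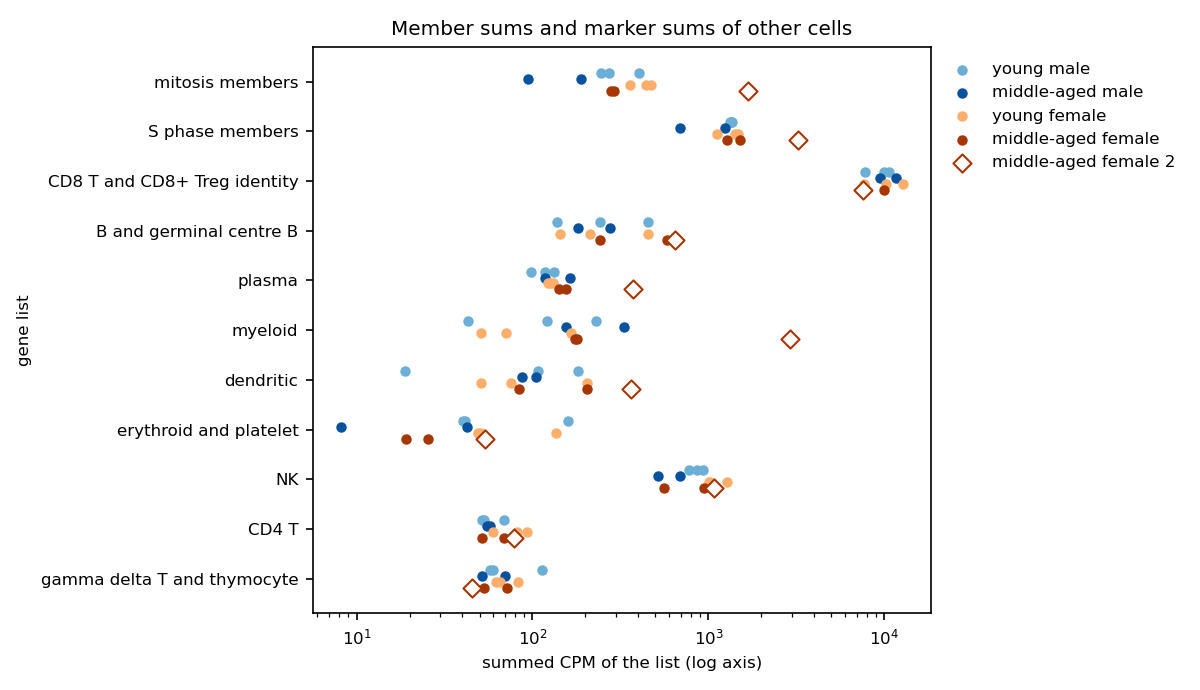
Summed CPM (log axis) of the mitosis members, the S phase members and 9 lists of marker genes in every library, with middle-aged female 2 as an open diamond. That library stands apart to the right for both member sums and for the myeloid, plasma and dendritic lists. For the CD8 identity list it lies at the low end, close to middle-aged female 3 and young female 3.

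Middle-aged male 1 was the lowest of all libraries for 26 of 44 members (59.1%), where it was lowest for 6.94% of all genes tested. Its library was the second deepest at 23113240 counts, and 5 members had 0 counts in it: Mki67, Ube2c, Bub1, Bub1b and Cdc6, which allows up to 0.142 CPM each. It was below the mean of middle-aged male 2, female 1 and female 3 for 40 of 44 members, with a median of -1.77 in log2 CPM over mitosis members and -1.34 over S phase members, beside -0.0022 over all genes tested. Aurka, Cenpa, Tyms and Pcna were the 4 not below it. Both outlying libraries were singled out after their values were seen. In middle-aged male 1 the myeloid markers were the second highest sum (332 CPM, of which Lyz2 made 285), the erythroid ones the lowest (8.17 CPM), and the gene length slope was -0.18. The part of these in its low cell cycle levels was not tested.

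Between the sexes, the fitted values of the members were mostly higher in females, by a size that rested in part on the outlying libraries. Of 44 members, 41 had a positive log2 fold change of females over males, with a median of 0.98 beside 0.014 over all genes tested. Without middle-aged female 2 the median was 0.51, with 39 positive, and without middle-aged male 1 alone it was 0.65, with 41 positive. Without both outlying libraries it was 0.38, with 35 positive. With all libraries, 0 passed an edgeR adjusted p under 0.05 (0.0381% of all genes, 5 genes, did), and 9 had an unadjusted p under 0.05 and were higher in females (20.5%, beside 0.533% of all genes). The 9 were Top2a (1.97), Ccna2 (2.10), Ccnb1 (1.79), Cdk1 (2.30), Kif11 (2.59), Cenpf (1.79), Ccne2 (2.29), Tk1 (1.42) and Stmn1 (0.99), all as log2 fold changes. Middle-aged female 2 and middle-aged male 1 enter this contrast on opposite sides. Without middle-aged female 2 the count was 5 (0.284% of all genes), without middle-aged male 1 it was 3 (0.329%), without middle-aged male 2 it was 2 (0.399%), and without both outlying libraries it was 5 (0.334%). In young libraries alone, where neither enters, the mitosis score was 3.38 ± 0.68 in females and 2.97 ± 0.24 in males (SD, n = 3 each), and the S phase score 5.10 ± 0.46 and 4.99 ± 0.24, differences that are within the spread of the female libraries.

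The age difference was also compared between the sexes by the interaction term. It was positive, that is higher in females, for 42 of 44 members, with a median of 1.78 beside 0.074 over all genes tested. Without middle-aged female 2 the median was 0.61, with 37 positive and 7 negative. With edgeR, 0 members had an adjusted p under 0.05 (0% of all genes, 0 genes, did), and 2 had an unadjusted p under 0.05 and were positive (4.55%, beside 0.602% of all genes). They were both subunits of ribonucleotide reductase, Rrm1 (1.79, SE 0.74, edgeR unadjusted p = 0.0356) and Rrm2 (2.58, SE 1.15, unadjusted p = 0.0465). This count was 0 without middle-aged female 2 (0.149% of all genes), young male 2 (0.433%), young male 3 (0.496%) or young female 2 (0.371%), and 1 without young male 1 (0.526%). It was 4 without middle-aged female 1 (0.671%) and 7 without middle-aged female 3 (0.529%). Leaving out a middle-aged male leaves 1 library in that group, which is then assumed to vary like the others. With middle-aged male 2 alone the count was 0 (0.0822%), and with middle-aged male 1 alone, the lowest library, it was 16 (1.73%).

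Other genes of the pathway were read from 4 lists, 104 genes in all, each of which was tested. Of these, 0 passed an adjusted p under 0.05 by age, 1 had an unadjusted p under 0.05 and was higher, and 2 had one and were lower. These 3 are 2.88% of the 104, beside 2.99% of all genes tested, so the share was that of the background. Their median log2 fold change was 0.066. The D cyclins and G1 kinases (7 genes, median 0.36) held the higher one, Ccnd3, a cyclin that drives cells out of rest (log2 fold change 0.52, SE 0.19, edgeR unadjusted p = 0.0193, adjusted p = 1.00). The 20 genes of RB, E2F and DREAM, which repress or drive the members, had 15 positive and 5 negative values and a median of 0.15. Of them, E2f7 and E2f8 reached 11.3 and 18.9 CPM in middle-aged female 2, against at most 2.84 and 2.66 CPM elsewhere. The 32 other S phase genes had a median of 0.092, with 21 positive.

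The 45 other genes of G2 and mitosis had a median of -0.067, with 21 positive and 24 negative. They held both lower genes. Smc4, a subunit of the condensin complex that compacts chromosomes, was the 1 gene of the 104 whose age groups did not overlap (0.962%, beside 1.32% of all genes tested). It ranged from 279.9 to 363 CPM in young libraries and had 178 and 213 CPM in middle-aged males 1 and 2 and 203, 200.2 and 175 CPM in middle-aged females 1, 2 and 3. It had 315 ± 28.8 CPM in young (SD, n = 6) and 194 ± 16.7 CPM in middle-aged libraries (SD, n = 5), a log2 fold change of -0.70 (SE 0.17, edgeR unadjusted p = 0.00164, adjusted p = 0.389), and middle-aged female 2, at 0.064 in log2 CPM above the mean of the other middle-aged libraries, did not stand apart. DESeq2 gave it an adjusted p of 0.000142. Cdc25b, a phosphatase that activates Cdk1, had a log2 fold change of -0.89 (SE 0.33, edgeR unadjusted p = 0.0203, adjusted p = 1.00). The highest library was middle-aged female 2 for 33 of these 45 genes, 17 of the 32 other S phase genes, 10 of the 20 genes of RB, E2F and DREAM and 2 of the 7 D cyclins and G1 kinases.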

How the data were processed

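RNA of sorted splenic CD8+ Tregs was amplified with a low-input SMARTer kit and sequenced. The authors deposited 1 table of whole-number counts per Ensembl gene on GRCm38 for 11 libraries, with gene coordinates and lengths. The submitters' processing notes name kallisto and mm10. How its estimates became whole counts, whether strand was used, and the versions are not given in the sources used here. The table was used as deposited. Columns were matched to groups by the labels.

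In R 4.3.3, genes were kept by filterByExpr (minimum count 10, total 15) and scaled by TMM. Age was tested with sex as a covariate by edgeR 4.0.16 (robust quasi-likelihood), with Benjamini-Hochberg adjustment over all 13129 genes and a threshold of 0.05. An age by sex term was fitted separately. Single levels were also compared by the exact permutation test (smallest p the design allows, 0.00216). Alternatives used DESeq2 1.42.0, limma 3.58.1 (voom), other factors and filters, a replicate block, a gene length slope and each library left out. Methods were tested on simulated data.

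The members and all lists were chosen with earlier results of these data known. Named genes were 11 standard members (Mki67, Top2a, Ccnb1, Cdk1, Birc5, Mcm2, Mcm5, Pcna, Rrm2, Tyms, Stmn1) and the 4 smallest p in each direction, whatever their size. Other members were given in counts and ranges or named where they bounded one, and pathway genes where their unadjusted p was under 0.05. E2f7, E2f8, Ccnb2 and the members named by highest or lowest value were chosen after their values were seen. Libraries were biological replicates according to the study, and p-values measure the spread between them. Intervals and floors cover counting error or the fitted spread only, since reads carry no molecular identifiers.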

Additional observations from a re-analysis of the deposited data

Results flagged for a closer look

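Levels of all 44 members and of the scores and sums were checked within the young (n = 6) and the middle-aged (n = 5) libraries for a single library far from the others, by the gap to its nearest neighbour divided by the range of the group. On the log2 CPM scale, 11 of 102 values passed the critical value of Dixon's test at 95% (10.8%). By chance about 1 in 20 groups pass, but the scores and sums are built from the members, so the values are not independent. The check was not run over all genes, so this count has no such share beside it and is not read as a result. Middle-aged female 2 was the far library in 5 of the 11, and the values share that library. It stood above the other middle-aged libraries for Tk1 (ratio 0.803), Aurka (0.780), Aurkb (0.779), Cenpa (0.748) and Ccne2 (0.734). Young female 1 was far below the other young libraries for Mcm6 (0.906), Cdc45 (0.791) and Aurkb (0.758), and young male 1 for Kif11 (0.743) and Aurka (0.643). Young female 3 was above them for Plk1 (0.683). Young female 1 and young male 1 were the shallowest libraries, at 8421396 and 6135736 counts, and had 0 counts for 4 members each. Middle-aged male 1 did not pass the critical value for any member, the highest ratio being 0.634 (Mki67), but middle-aged female 2 at the other end enters the same range of 5 values, so this does not show that middle-aged male 1 was close to the others.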

How the results depend on the processing

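No member had an adjusted p under 0.05 by age in any of 28 alternative fits, nor by sex or in the interaction in the fits run for these. By age, an unadjusted p under 0.05 was held by 0 members in the main fit, by 1 with voom and by 1 with each replicate block. It was held by 1 with the length slope and the block, 1 in males alone and 2 in libraries with over 10000000 counts. These age counts have no share over all genes beside them and are not read as a result. Members with a positive value and an unadjusted p under 0.05, 9 by sex and 2 in the interaction, changed in number with the method. They were 14 and 8 with voom (2.12% and 4.62% of all genes) and 12 and 9 with the replicate block shared by both sexes (1.36% and 2.06%). With at least 1 count in any library they were 11 and 7 (1.51% and 1.72%). With at least 10 counts in every library, which kept fewer members, they were 6 and 3 (0.491% and 0.413%). The 18 named members gave 498 alternative age values, of which 109 had the other sign and 0 an adjusted p under 0.05. Negative fitted values, 12 of 44 with all libraries, numbered 25 with voom, 19 with a gene length slope, 35 with that slope and the replicate block (median log2 fold change -0.50), 39 in males alone, 3 in females alone, 5 without a sex term and 2 with replicate numbers 2 and 3 alone (added after seeing the data, as was leaving out both outlying libraries). Leaving out 1 library gave a median log2 fold change of -0.41 (without middle-aged female 2) to 0.52 (without middle-aged male 1), score differences of -0.51 to 0.59 over all members, -0.77 to 0.60 for mitosis, -0.20 to 0.58 for S phase and -0.01 to 0.57 for their difference, and log2 ratios of summed CPM of -0.85 to 0.17 for mitosis and -0.24 to 0.32 for S phase. In males alone the S phase score difference was -0.58 and the log2 ratio of the S phase sum -0.53. Exact permutation p under 0.05 were held by 0 to 7 members on leaving out 1 library, 7 without middle-aged female 2, and by 2 without both outlying libraries. The permutation test was run on the members alone, so these counts have no share over all genes beside them and are not read as a result. Genes called by age over the whole table numbered 3, and 112 with DESeq2, 136 with voom, 45 with the length slope and 17 with a looser filter. Of the other pathway genes, Smc4 was called by DESeq2 (1 gene), by the replicate block shared by both sexes (1 gene of 19, adjusted p = 0.0445, edgeR) and, with Cdc25b, by voom (2 genes) and the length slope (2 genes). The cause was not tested. The deviations of libraries with the same number correlated at 0.32 and 0.18 in males and 0.43, 0.029 and 0.39 in females, and since 1 of these 5 was not over 0.1 the numbers were not taken as pairs. That pair holds middle-aged female 2, and the labels do not say whether a number marks a shared batch. With the replicate block within sex, 0 members and 0 other pathway genes were called, 21 members were negative, and 7 of 10 libraries correlated best with their own number. The mean of the differences within numbers was 0.08 for the score over all members. Thin counts limit 14 members, mostly of mitosis, and intervals of the age difference that hold 0 do not show that a member was unchanged.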
